A study of Mus musculus with 13 samples.

Results

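The comparison set B16F10 melanomas grown in control mice against the lymph nodes that drained them, and it covered every gene of the deposited count tables. Its members were the 6 libraries labelled Foxp3Ctrl, 3 from tumour and 3 from tumour-draining lymph node, of 13 samples described for the series. The tumour and node tables were joined on Ensembl gene ID, which matched for all 49315 IDs, and 31788 genes had at least 1 count in these 6 libraries. B16F10 is a pigmented mouse melanoma cell line, and 200000 cells in matrigel were injected into the skin of the left flank of female mice 6 to 11 weeks old. The design text gives the controls as Jag1 fl/wt with Foxp3eGFP-Cre-ERT2. This is a tamoxifen-inducible Cre made where Foxp3 is active, that is in regulatory T cells. The genotype label calls the controls WT, and the labels do not settle which holds. If the design text holds, tamoxifen could remove the Cre-sensitive (fl) Jag1 allele from regulatory T cells of these controls, which was not tested. The tumours came from a single cell line, and the labels do not say that each library came from a separate mouse, so p-values measure the spread between these libraries. Mice aged 6 to 8 weeks had received 5 doses of tamoxifen (0.1 mg/g each), followed by 9 days of washout before injection, and RNA came from whole tissue. Libraries are called tumour 1, 2 and 3 and node 1, 2 and 3, and values given in threes follow that order.

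A B16F10 tumour consists mainly of melanoma cells that keep the pigment programme of melanocytes, driven by the transcription factors Mitf and Sox10 and carried out by the tyrosinase family of enzymes. Host vessels, fibroblasts and infiltrating leukocytes make up the remainder. A draining lymph node is organised into B cell follicles and T cell zones, scaffolded by fibroblastic reticular cells that make the chemokines Cxcl13 and Ccl19, and lymphocytes enter it through high endothelial venules. In RNA from whole tissue, fewer cells of a type and less RNA per cell cannot be told apart, which holds for every value given here.

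Total counts ran from 32117478 to 43068367 per library. The first principal component of the log2 CPM (a gene's count scaled to 1000000 counts of its library) carried 92.3% of the variance and separated tumours from nodes. The second carried 2.59% and set node 3 apart from nodes 1 and 2. Correlations of log2 CPM were 0.984 to 0.989 between tumours, 0.981 to 0.989 between nodes and 0.750 to 0.763 across the tissues. Log2 fold changes (log2FC) below are tumour minus node, and the value after ± is an approximate standard error. It is the size of the log2FC divided by the square root of the F statistic of edgeR's quasi-likelihood test. It was thus derived from the test and not estimated by the fit itself. Each adjusted p is from that test with Benjamini-Hochberg adjustment over all genes tested. Jag1 is the gene that the Cre deletes in regulatory T cells of other mice of the series. Its level was 16.0, 14.6 and 11.1 CPM in the tumours and 22.0, 23.2 and 24.4 CPM in the nodes (log2FC -0.68 ± 0.16, adjusted p = 0.00439). Foxp3, which drives the Cre, stood at 0.799, 0.952 and 0.996 CPM in the tumours and 12.2, 17.9 and 18 CPM in the nodes (log2FC -4.07 ± 0.24, adjusted p = 2.95e-06). Neither gene's tumours and nodes overlapped, and node was the higher tissue for both.

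The labelled tissues matched their defining markers. Tyr, the enzyme that starts melanin synthesis, stood at 504, 594 and 895 CPM in the tumours and 0.330, 0.557 and 0.592 CPM in the nodes. Cd79a, the signalling chain of the B cell receptor, stood at 0.719, 0.708 and 0.747 CPM in the tumours and 766, 839.9 and 734 CPM in the nodes. Cd3e, a chain of the T cell receptor complex, stood at 4.47, 4.64 and 7.6 CPM in the tumours and 154, 132 and 191 CPM in the nodes. Tyr was high in every tumour and near 0 in every node, Cd79a the reverse, and Cd3e was low but present in all 3 tumours. Of the node stroma markers, Ccl21a had 0 counts in every tumour and 1, 2 and 4 counts in the nodes and was not tested. It has near-identical copies among which reads cannot be assigned. Markers of neighbouring tissue differed between libraries of the same kind. The muscle actin Acta1 stood at 0.160, 0.464 and 114 CPM in the tumours and 0.0826, 0.0697 and 0.0846 CPM in the nodes. The fat droplet protein Plin1 stood at 15.2, 11.2 and 0.560 CPM in the tumours and 0.936, 1.46 and 6.12 CPM in the nodes. The basal keratin Krt14 stood at 0.719, 0.268 and 0 CPM in the tumours and 0.0275, 1.16 and 3.05 CPM in the nodes. Acta1 was high only in tumour 3, Plin1 was low in tumour 3 among tumours and high in node 3 among nodes, and Krt14 was highest in node 3 of the 6.

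**Figure D1:**
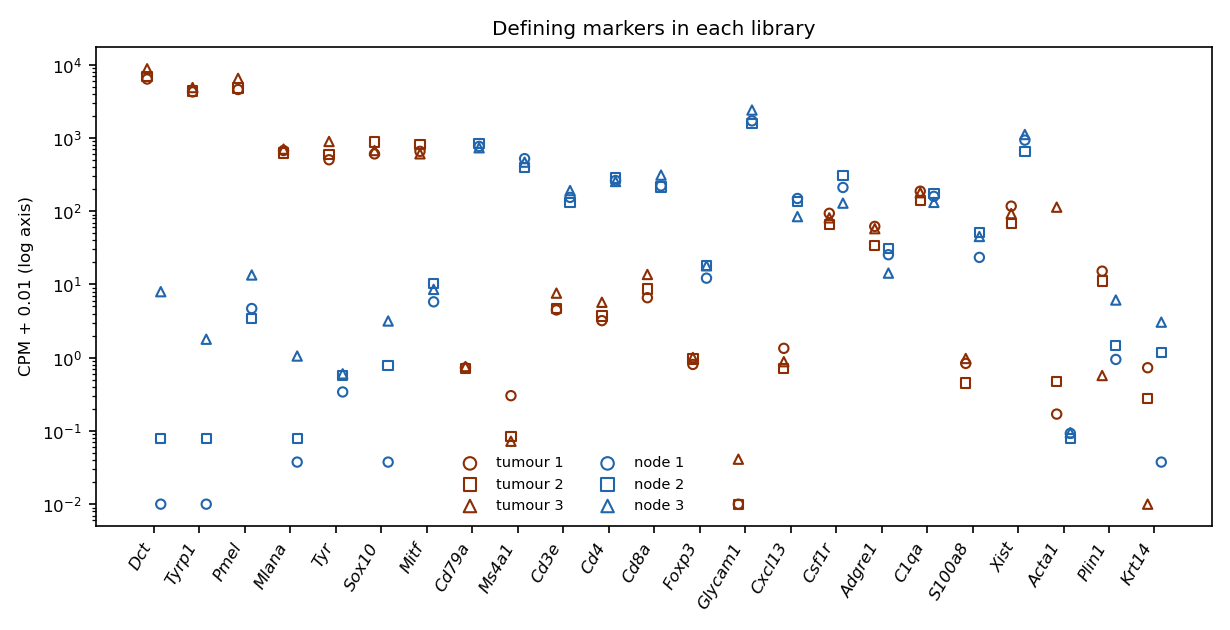
Level of 23 marker genes in each library, as CPM plus 0.01 on a log axis; brown symbols are the 3 tumours, blue symbols the 3 nodes, and the symbol shape gives the library number. Pigment genes at the left sit high in all tumours, with node 3 above the other nodes for Dct, Tyrp1, Mlana and Sox10, lymphocyte genes in the middle sit high in all nodes, and Acta1 at the right is high in tumour 3 alone.

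Most of the transcriptome differed between the tissues. Of 18566 genes that passed a filter on low counts, 6611 were higher in tumour (35.6%) and 6972 lower (37.6%) at an adjusted p under 0.05, so 73.2% were called in either direction. These shares are the background against which each list below is read, and the median log2FC of all genes tested was -0.05. The lists held 939 genes, of which 886 passed the filter on low counts, and every list count is over members that passed it. Against a fold of 2, edgeR's glmTreat called 3106 genes higher (16.7%) and 3818 lower (20.6%). Tumour and node libraries did not overlap for 14466 genes (77.9%).

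Among protein-coding genes past the 2-fold test with a log2FC of at least 2 and no overlap, the 12 highest in CPM (not corrected for gene length) were mainly pigment and glycolysis genes. Of these, Dct, Pmel, Gpnmb and Tyrp1 belong to the melanosome and Gapdh, Pkm, Eno1, Aldoa, Pgk1, Tpi1 and Ldha are enzymes of glycolysis. The reverse list of 12 held the antigen-presentation genes Cd74, H2-Ab1, H2-Eb1 and H2-Aa, the venule mucin Glycam1, complement C3, the leukocyte genes Ptprc, Coro1a and Lcp1, and Tmsb4x, Shisa5 and Ly6e. Ptprc, the CD45 phosphatase of all leukocytes, stood at 80.4, 43.5 and 69.1 CPM in the tumours and 1489, 1269 and 1688 CPM in the nodes (log2FC -4.47 ± 0.24, adjusted p = 2.53e-06). Tumour levels of Ptprc were 5.43, 2.94 and 4.66% of the node mean. Xist, the RNA that coats the silenced X chromosome of female cells, was at 13, 7.50 and 10.3% of the node mean in the tumours.

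**Figure D2:**
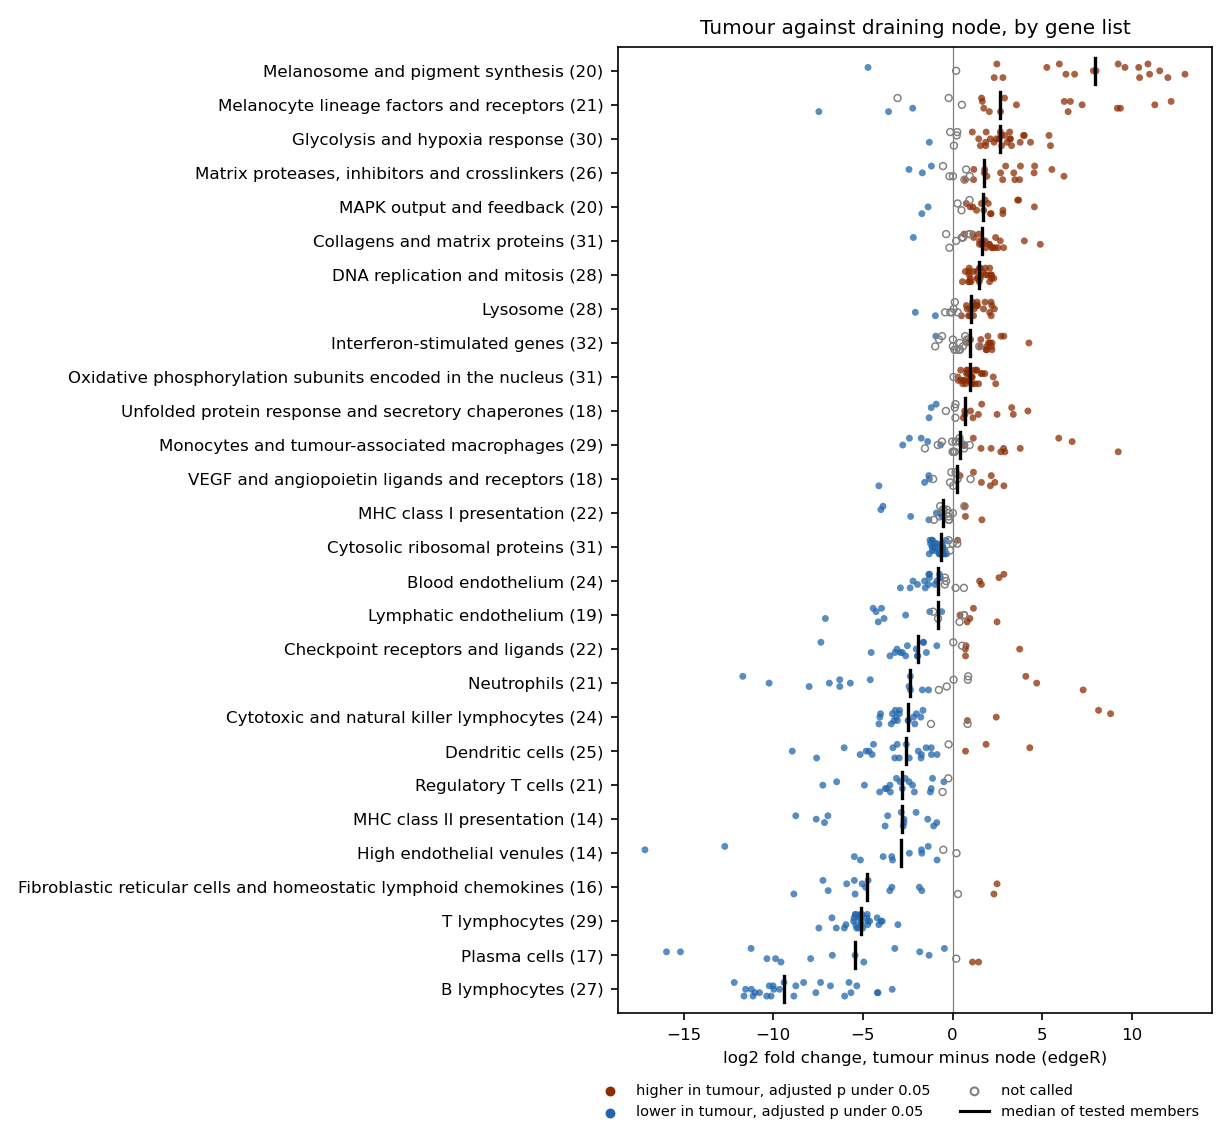
Log2 fold change, tumour minus node, of the tested members of 28 gene lists, ordered by list median; brown and blue points passed an adjusted p under 0.05 as higher or lower in tumour, open grey points did not, black bars are medians, and the number of tested members stands in parentheses. The pigment list lies at the top with a median of 7.93 and the B cell list at the bottom with -9.40.

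Melanosome and pigment genes showed the largest median of the lists, 7.93. Of 20 members, all tested, 18 were higher in tumour and 1 lower, against the background shares of 35.6% and 37.6%. Short stretches of promoter are printed here because several of these genes share the sequence TCATGTG, the form of the E-box that Mitf is known to bind. They are from RefSeq on GRCm38.p6, 5′ to 3′ on the strand of the gene, with the motif or its reverse complement CACATGA in capitals.
Tyr, chr7:87493513-87493564, minus strand: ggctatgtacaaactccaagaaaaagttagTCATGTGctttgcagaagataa
Tyrp1, chr4:80834136-80834202, plus strand: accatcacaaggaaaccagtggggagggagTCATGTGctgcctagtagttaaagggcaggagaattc
Dct, chr14:118052361-118052427, minus strand: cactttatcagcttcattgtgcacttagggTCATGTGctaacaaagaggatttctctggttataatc
Trpm1, chr7:64153663-64153729, plus strand: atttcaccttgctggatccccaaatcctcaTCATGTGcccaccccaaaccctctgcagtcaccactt
Mc1r, chr8:123407000-123407066, plus strand: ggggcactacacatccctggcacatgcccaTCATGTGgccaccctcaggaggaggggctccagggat
The motif lay 22 to 16 bases before the start in Tyr, 47 to 41 in Tyrp1, 151 to 145 in Dct, 142 to 136 in Trpm1 and 52 to 46 in Mc1r; Dct held a further match, CACATGA, 232 to 226 bases before its start. Windows ran from 250 bases before to 50 after each annotated start and were searched for TCATGTG on both strands. Of 14 pigment genes with a RefSeq promoter, 6 held it (42.9%; Slc24a5 and Tspan10 besides Tyr, Tyrp1, Dct and Trpm1), and of 16 melanocyte lineage genes 1 did, Mc1r. Over all 27025 genes with a promoter the share was 4.31%. The matches are descriptions of sequence, and binding was not measured.

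The enzymes of the pathway were among the genes furthest apart. Tyr, whose values are given above, had a log2FC of 10.43 ± 0.35 (adjusted p = 4.07e-07). Tyrp1, which oxidises a later melanin intermediate, stood at 4251, 4356 and 4875 CPM in the tumours and 0, 0.0697 and 1.78 CPM in the nodes. Dct, the dopachrome tautomerase, stood at 6376, 6837 and 8803 CPM in the tumours and 0, 0.0697 and 7.95 CPM in the nodes. Node 3 held most of the node counts of both genes. The log2FC of Dct was 11.56 ± 1.92 with all nodes and 17.45 without node 3 (adjusted p = 0.00242 and 1.91e-06). The log2FC of Tyrp1 was 12.97 ± 1.22 and 16.75 (adjusted p = 0.000201 and 1.29e-06). With so few counts left in nodes 1 and 2, the second value of each depends on the prior count of the fit. Pmel, whose product forms the fibrils on which melanin is laid down, stood at 4582, 4833 and 6508 CPM in the tumours and 4.68, 3.44 and 13.5 CPM in the nodes (log2FC 9.62 ± 0.66, adjusted p = 2.57e-05). Without node 3 its log2FC was 10.36. Gpnmb, a melanosomal glycoprotein also made by macrophages, stood at 4504, 5283 and 4899 CPM in the tumours and 4.98, 12.7 and 7.25 CPM in the nodes (log2FC 9.24 ± 0.45, adjusted p = 2.93e-06). Every tumour exceeded every node by far for these genes. Tmem163, a zinc transporter, was the member lower in tumour, at 0.426, 0.537 and 0.560 CPM in the tumours and 12.8, 15.8 and 13.2 CPM in the nodes (log2FC -4.72 ± 0.23, adjusted p = 1.36e-06). Bloc1s6, a subunit of an organelle sorting complex, was not called, at 39.7, 34.6 and 36.6 CPM in the tumours and 35.1, 29.6 and 36.1 CPM in the nodes (log2FC 0.20 ± 0.10, adjusted p = 0.114). Pigment list genes together took 2.53, 2.71 and 3.29% of tumour counts and 0.0333, 0.0387 and 0.0352% of node counts.

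Of 22 lineage factors and receptors, 21 were tested, and 15 were higher and 3 lower in tumour (median 2.67); Foxd3 did not pass the filter. Mitf, the master regulator of the lineage, stood at 656, 809.6 and 607 CPM in the tumours and 5.78, 10.3 and 8.55 CPM in the nodes (log2FC 6.45 ± 0.27, adjusted p = 8.73e-07). The receptor tyrosine kinase Met stood at 1574, 1537 and 2171 CPM in the tumours and 11.1, 11.7 and 13.8 CPM in the nodes (log2FC 7.23 ± 0.20, adjusted p = 1.46e-07). Sox10, the neural crest factor upstream of Mitf, stood at 606, 876 and 673 CPM in the tumours and 0.0275, 0.766 and 3.16 CPM in the nodes (log2FC 9.19 ± 1.03, adjusted p = 0.000427), with a log2FC of 10.73 without node 3. No node reached the lowest tumour for Mitf, Met or Sox10. Lower in tumour were genes that leukocytes also use. Lef1, a Wnt pathway factor of naive T cells, stood at 0.559, 0.610 and 0.654 CPM in the tumours and 115, 86.4 and 136 CPM in the nodes (log2FC -7.46 ± 0.20, adjusted p = 1.28e-07). Bcl2a1d, an anti-apoptotic gene of leukocytes, stood at 5.01, 3.2 and 4.95 CPM in the tumours and 22.4, 22.3 and 18.9 CPM in the nodes (log2FC -2.23 ± 0.21, adjusted p = 3.96e-05). The receptor kinase Kit was not called, at 66.2, 38.6 and 37.3 CPM in the tumours and 30.6, 34.5 and 38 CPM in the nodes (log2FC 0.52 ± 0.22, adjusted p = 0.0652). It was called higher without tumour 2 (0.67, adjusted p = 0.0393) or tumour 3 (0.70, adjusted p = 0.0228).

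Most genes of energy metabolism were higher in tumour. Of 30 glycolysis and hypoxia response genes 25 were higher and 1 lower (median 2.64), and of 31 nuclear-encoded oxidative phosphorylation subunits 30 were higher and 0 lower (median 0.95). Gapdh stood at 5854, 7628 and 4781 CPM in the tumours and 662, 824 and 523 CPM in the nodes (log2FC 3.23 ± 0.26, adjusted p = 1.87e-05). Tpi1, the triosephosphate isomerase, stood at 2171, 2455 and 1703 CPM in the tumours and 105, 133 and 83.0 CPM in the nodes (log2FC 4.35 ± 0.25, adjusted p = 3.65e-06). Both are used as reference genes in some assays, and here tumours and nodes did not overlap for either. Tumour 3 was the lowest tumour for 29 of 30 genes of the list, Gapdh included. Among members picked after their values were seen, Car9, a carbonic anhydrase induced in hypoxia, stood at 122, 106 and 50.1 CPM in the tumours and 2.31, 1.83 and 2.45 CPM in the nodes (log2FC 5.46 ± 0.39, adjusted p = 2.38e-05). Slc16a3, the lactate exporter, stood at 337, 338 and 170.1 CPM in the tumours and 5.29, 9.45 and 6.20 CPM in the nodes (log2FC 5.38 ± 0.40, adjusted p = 3.38e-05). Car12, another carbonic anhydrase, was the member lower in tumour, at 2.18, 1.93 and 1.03 CPM in the tumours and 4.10, 3.46 and 5.75 CPM in the nodes (log2FC -1.30 ± 0.33, adjusted p = 0.00752). Tumours and nodes did not overlap for these 3 genes. In the respiratory chain the folds were smaller. Atp5b, the catalytic subunit of ATP synthase, stood at 1217, 1326 and 1124 CPM in the tumours and 657, 617 and 546 CPM in the nodes (log2FC 1.06 ± 0.13, adjusted p = 0.000171). Uqcrc2, a core subunit of complex III, was the member not called, at 107, 109.8 and 102 CPM in the tumours and 114, 102 and 103 CPM in the nodes (log2FC 0.05 ± 0.09, adjusted p = 0.634). Transcripts of the mitochondrial genome took 1.25, 1.43 and 1.58% of tumour counts and 1.65, 1.63 and 2.26% of node counts. These shares were lower in every tumour than in every node (exact permutation test, two-sided p = 0.1, the smallest that 3 against 3 allows).

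Each of the 28 DNA replication and mitosis genes was higher in tumour, with a median of 1.49. Top2a, the topoisomerase that untangles replicated DNA, stood at 454, 429.6 and 415 CPM in the tumours and 186, 154 and 119 CPM in the nodes (log2FC 1.55 ± 0.18, adjusted p = 0.000122). Mcm2, a subunit of the replicative helicase, stood at 396, 488 and 385 CPM in the tumours and 106, 101 and 84.9 CPM in the nodes (log2FC 2.17 ± 0.16, adjusted p = 8.52e-06). Rrm2, which makes deoxynucleotides, stood at 294, 374 and 289 CPM in the tumours and 84.3, 71.4 and 44.2 CPM in the nodes (log2FC 2.30 ± 0.27, adjusted p = 0.000203). Nodes also expressed all 3 genes, and node 3 was the lowest node for 27 of the 28 genes. The G1 regulators were split, 8 higher and 8 lower of 21. Cdk2, which lies next to Pmel in the genome, stood at 611, 566 and 728 CPM in the tumours and 54.6, 57.4 and 55.3 CPM in the nodes (log2FC 3.56 ± 0.13, adjusted p = 3.96e-07). Cdk4 stood at 264, 254 and 259 CPM in the tumours and 124, 108 and 110.4 CPM in the nodes (log2FC 1.24 ± 0.10, adjusted p = 1.41e-05). Rb1, the retinoblastoma protein that these kinases inactivate, stood at 27.4, 17.2 and 23.5 CPM in the tumours and 69.9, 57.8 and 65.0 CPM in the nodes (log2FC -1.45 ± 0.17, adjusted p = 0.000118). Neither Cdk2, Cdk4 nor Rb1 overlapped between the tissues. Trp53, the p53 gene, stood at 122, 142 and 118 CPM in the tumours and 169, 169 and 174 CPM in the nodes (log2FC -0.36 ± 0.10, adjusted p = 0.0124). Its call was lost without tumour 1 (-0.31, adjusted p = 0.0580) or tumour 3 (-0.27, adjusted p = 0.0630).

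Chromosome 4 around Cdkn2a was examined gene by gene after Cdkn2a was seen to be low. Cdkn2a encodes the cell cycle inhibitors p16 and p19Arf. It stood at 0.266, 0.293 and 0.311 CPM in the tumours and 3.63, 3.81 and 3.33 CPM in the nodes. Its neighbour Cdkn2b, which encodes a related inhibitor, stood at 0.426, 0.928 and 0.529 CPM in the tumours and 4.16, 5.06 and 4.71 CPM in the nodes. The log2FC values were -3.56 ± 0.26 and -2.81 ± 0.34 (adjusted p = 1e-05 and 0.000136), and no tumour overlapped a node. On one side of the pair Dmrta1 stood at 0, 0.0244 and 0.0934 CPM in the tumours and 1.73, 2.25 and 2.62 CPM in the nodes (log2FC -5.73 ± 0.60, adjusted p = 6.78e-05). On the other side Mtap, which salvages methionine, stood at 102, 149 and 107 CPM in the tumours and 45.3, 36.7 and 42.8 CPM in the nodes (log2FC 1.58 ± 0.16, adjusted p = 6.84e-05). Beyond it Klhl9 stood at 83.9, 77.3 and 99.7 CPM in the tumours and 68.7, 65.9 and 63.2 CPM in the nodes (log2FC 0.45 ± 0.11, adjusted p = 0.00749). Among protein-coding genes with at least 1 CPM on average in either tissue, the low values covered 3 consecutive genes. These were Cdkn2a at chr4:89274471-89294653 (GRCm38), Cdkn2b at chr4:89306299-89311039 and Dmrta1 at chr4:89679436-89694772. Mtap at chr4:89137122-89181081 was higher in every tumour than in every node. From Focad to Dmrta1, 8 genes reached that level, 3 lower and 3 higher in tumour. The shares over all genes tested were 37.6% lower and 35.6% higher. The third gene higher was Hacd4 (log2FC 2.05 ± 0.21, adjusted p = 5.74e-05), and Focad and Gm26566 were not called. Copy number was not measured, and counts left in the tumours were 10, 12 and 10 for Cdkn2a and 0, 1 and 3 for Dmrta1.

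Outputs of the MAPK pathway, by which growth factor signals reach the nucleus, were mostly higher: 15 of 20 higher and 2 lower (median 1.68). Phlda1 stood at 251, 258 and 264 CPM in the tumours and 10.5, 11.8 and 11.6 CPM in the nodes (log2FC 4.56 ± 0.10, adjusted p = 9.19e-08). Dusp6, a feedback phosphatase of the pathway, stood at 199, 184 and 157 CPM in the tumours and 57.9, 52.9 and 57.3 CPM in the nodes (log2FC 1.74 ± 0.11, adjusted p = 4.62e-06). Immediate early Egr1, by contrast, stood at 19, 7.40 and 20.4 CPM in the tumours and 53.4, 50.1 and 55.5 CPM in the nodes (log2FC -1.71 ± 0.35, adjusted p = 0.00392). Tumours and nodes did not overlap for any of these 3 genes. Of 20 tested fetal and imprinted genes, 13 were higher and 4 lower. Plagl1, an imprinted zinc finger gene, stood at 266, 315 and 307 CPM in the tumours and 1.49, 1.81 and 2.71 CPM in the nodes (log2FC 7.27 ± 0.21, adjusted p = 1.76e-07). Picked after their values were seen, the fetal RNA-binding gene Igf2bp1 stood at 4.18, 5.22 and 1.62 CPM in the tumours and 0.0826, 0.0464 and 0 CPM in the nodes (log2FC 6.35 ± 0.75, adjusted p = 0.000139). Its log2FC was 7.06 without node 1. The fetal chromatin gene Hmga2 stood at 11.1, 16.3 and 8.44 CPM in the tumours and 0, 0.0929 and 0.0564 CPM in the nodes (log2FC 7.82 ± 0.58, adjusted p = 1.21e-05), with a log2FC of 8.67 without node 2. All 3 genes were at or below 2.71 CPM in every node. Among 29 ephrin and guidance genes 16 were higher and 9 lower. The semaphorin receptor Plxna1 stood at 875, 1073 and 1363 CPM in the tumours and 55.7, 68.4 and 40.0 CPM in the nodes (log2FC 4.38 ± 0.29, adjusted p = 8.07e-06). The lymphocyte semaphorin Sema4d stood at 23.3, 20.6 and 27.6 CPM in the tumours and 276, 257 and 294 CPM in the nodes (log2FC -3.48 ± 0.12, adjusted p = 3.93e-07).

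Most matrix genes were higher in tumour. Of 31 collagens and matrix proteins 22 were higher and 1 lower (median 1.64); collagen genes took 0.676, 0.388 and 0.278% of counts in the tumours and 0.155, 0.169 and 0.0841% in the nodes. Col1a1, the main fibrillar collagen of skin, stood at 1626, 871 and 550.3 CPM in the tumours and 219, 248 and 71.8 CPM in the nodes (log2FC 2.53 ± 0.64, adjusted p = 0.0127). Its tumours spread widely, with tumour 1 the highest and tumour 3 the lowest, as was so for most of the list: tumour 1 was the highest tumour for 29 of 31 genes and node 3 the lowest node for 29. Dcn, a small proteoglycan that binds collagen, was lower in tumour, at 68.5, 40.0 and 33.8 CPM in the tumours and 189, 304 and 177 CPM in the nodes (log2FC -2.19 ± 0.35, adjusted p = 0.00127). Of 26 proteases, inhibitors and crosslinkers 17 were higher and 3 lower (median 1.78). Mmp14, a membrane collagenase, stood at 349, 378 and 369.9 CPM in the tumours and 103, 151 and 77.6 CPM in the nodes (log2FC 1.77 ± 0.26, adjusted p = 0.000579). Adamts1, a protease of proteoglycans, stood at 167, 144 and 245 CPM in the tumours and 7.93, 10.1 and 6.43 CPM in the nodes (log2FC 4.55 ± 0.29, adjusted p = 9.43e-06). Mmp9, a gelatinase of leukocytes, was lower in tumour, at 1.15, 2.34 and 3.58 CPM in the tumours and 8.18, 18.3 and 12.9 CPM in the nodes (log2FC -2.43 ± 0.47, adjusted p = 0.00218). None of the 3 overlapped between the tissues. Among 14 tested fibroblast markers 7 were lower and 1 higher. The latter, Twist1, stood at 6.39, 2.86 and 2.24 CPM in the tumours and 1.98, 1.74 and 1.35 CPM in the nodes (log2FC 1.23 ± 0.42, adjusted p = 0.0286). Its call was lost without tumour 1 (0.67, adjusted p = 0.0904), node 1 (1.35), node 2 (1.27) or node 3 (1.05), which left 0 markers higher, and 2 were higher without tumour 3. Pdgfra, the growth factor receptor that marks fibroblasts, stood at 26.2, 10.3 and 11.6 CPM in the tumours and 50.9, 44.6 and 37.8 CPM in the nodes (log2FC -1.42 ± 0.37, adjusted p = 0.0119).

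Blood vessel genes were mostly lower in tumour. Of 24 blood endothelial genes 15 were lower and 4 higher in tumour (median -0.80). Pecam1, the adhesion molecule CD31 that leukocytes also carry, stood at 62.7, 54.4 and 35.7 CPM in the tumours and 365, 440.3 and 390.3 CPM in the nodes (log2FC -2.91 ± 0.22, adjusted p = 1.39e-05). Cdh5, the cadherin of endothelial junctions, stood at 56.1, 58.7 and 38 CPM in the tumours and 95.4, 130.1 and 85.9 CPM in the nodes (log2FC -0.98 ± 0.23, adjusted p = 0.00676). Both were lower in every tumour than in every node. Eng, a co-receptor for TGF beta, was higher in tumour, at 354, 375 and 316 CPM in the tumours and 126, 145 and 109 CPM in the nodes (log2FC 1.51 ± 0.15, adjusted p = 5.31e-05). Angpt2, which loosens vessels, stood at 32.0, 45.0 and 28.5 CPM in the tumours and 12.4, 12.7 and 10.8 CPM in the nodes (log2FC 1.61 ± 0.20, adjusted p = 0.000165). Picked after its value was seen, the tip cell gene Apln stood at 17.0, 20.6 and 11.6 CPM in the tumours and 3.61, 1.53 and 1.92 CPM in the nodes (log2FC 2.86 ± 0.37, adjusted p = 0.000260). Tumour 3 was the lowest tumour for all 24 blood endothelial genes. It was also the lowest for 29 of 31 ribosomal protein genes, but for 0 of 20 pigment genes.

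High endothelial venule genes were the furthest apart of the vessel lists, with 12 of 14 lower in tumour and 0 higher (1 higher without tumour 1; median -2.88). Glycam1, the sulfated ligand on which lymphocytes roll, stood at 1710.0, 1570.3 and 2403 CPM in the nodes and had 0, 0 and 1 counts in the tumours (adjusted p = 9.19e-08; no fold is given at so few counts). Chst4, the enzyme that sulfates it, had 0 counts in all tumours and 21.2, 25.6 and 21.2 CPM in the nodes, at least 842-fold higher in node if the 3 tumours together are set to a floor of 3 counts. Spns2, a transporter of sphingosine 1-phosphate, stood at 7.16, 4.93 and 3.95 CPM in the tumours and 88.7, 91.8 and 63.1 CPM in the nodes (log2FC -3.87 ± 0.28, adjusted p = 1.44e-05).

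Lymphatic genes were split: of 19 tested, 9 were lower and 5 higher (2 higher without node 1). The defining factor Prox1 was not called, at 7.99, 6.00 and 11.3 CPM in the tumours and 15.3, 21.7 and 8.43 CPM in the nodes (log2FC -0.81 ± 0.39, adjusted p = 0.0977). The median of the list was -0.81. Without node 3, which was the lowest node for 15 of 19 lymphatic genes, Prox1 was lower in tumour (-1.13, adjusted p = 0.0120). Stab2, a scavenger receptor of sinus endothelium, stood at 0.346, 0.220 and 0.467 CPM in the tumours and 42.9, 75.8 and 24.6 CPM in the nodes (log2FC -7.10 ± 0.61, adjusted p = 7.26e-05), with no overlap. Of 18 vessel growth factors and receptors 7 were higher and 4 lower. Vegfa stood at 219.6, 216 and 133 CPM in the tumours and 50.1, 44.3 and 42.5 CPM in the nodes (log2FC 2.11 ± 0.21, adjusted p = 5.85e-05). Vegfb stood at 100.4, 106 and 121 CPM in the tumours and 20.6, 25.3 and 20.1 CPM in the nodes (log2FC 2.36 ± 0.14, adjusted p = 3.62e-06). Kdr, a receptor for Vegfa, stood at 32.6, 36.8 and 23.7 CPM in the tumours and 73.2, 108 and 59.3 CPM in the nodes (log2FC -1.33 ± 0.28, adjusted p = 0.00425).

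Of 16 tested genes of reticular cells and homeostatic chemokines, 13 were lower and 2 higher in tumour (median -4.78). Cxcl13, the chemokine of follicles, stood at 1.33, 0.708 and 0.872 CPM in the tumours and 149, 136 and 84.4 CPM in the nodes (log2FC -6.94 ± 0.36, adjusted p = 4.55e-06). Clu, made by follicular dendritic cells, stood at 10.3, 6.79 and 4.83 CPM in the tumours and 1189, 1237 and 999 CPM in the nodes (log2FC -7.23 ± 0.33, adjusted p = 1.66e-06). Cxcl12 stood at 44.4, 28.1 and 32.6 CPM in the tumours and 451, 332 and 360.1 CPM in the nodes (log2FC -3.39 ± 0.20, adjusted p = 4.17e-06). For these 3 genes the highest tumour lay far under the lowest node. Ltbr, the lymphotoxin receptor, was higher in tumour, at 107, 117 and 114 CPM in the tumours and 23, 29.6 and 18 CPM in the nodes (log2FC 2.31 ± 0.20, adjusted p = 3.02e-05). So was Pdpn, podoplanin, at 61.1, 42.3 and 54.5 CPM in the tumours and 11.5, 10.5 and 7.25 CPM in the nodes (log2FC 2.48 ± 0.22, adjusted p = 3.45e-05).

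B cell genes were the list furthest below the nodes: all 27 were lower in tumour, with a median of -9.40. Ighm, the constant region of IgM, stood at 16.7, 11.1 and 13.2 CPM in the tumours and 3049.9, 2959 and 2406 CPM in the nodes (log2FC -7.63 ± 0.24, adjusted p = 2.17e-07). Cd79a, given above, had a log2FC of -10.01 ± 0.17 (adjusted p = 7.64e-08) and even levels over the tumours. Immunoglobulin genes took 0.00228, 0.00278 and 0.00285% of tumour counts and 2.55, 3.32 and 1.07% of node counts, with node 3 the lowest node. Of 182 tested immunoglobulin V segments 180 were lower in tumour and 0 higher.

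Of 12 germinal centre genes 10 were lower and 2 higher. Bcl6, the repressor that defines germinal centre B cells, stood at 18.6, 10.3 and 16.4 CPM in the tumours and 92.1, 87.0 and 90.5 CPM in the nodes (log2FC -2.52 ± 0.20, adjusted p = 1.85e-05). It was lower in every tumour than in every node. The mitotic kinase Aurkb, which also belongs to the proliferation list, was higher in tumour, at 73.4, 89.6 and 68.3 CPM in the tumours and 33.0, 30.7 and 21.7 CPM in the nodes (log2FC 1.49 ± 0.20, adjusted p = 0.000306). S1pr2, a receptor that holds B cells in the germinal centre, was the other member higher, at 51.4, 60.1 and 45.2 CPM in the tumours and 25.7, 24.7 and 23.5 CPM in the nodes (log2FC 1.14 ± 0.13, adjusted p = 0.000124). No node reached the lowest tumour for either gene. Plasma cell genes gave 14 lower and 2 higher of 17 (median -5.44); those higher were Sdc1 and Fkbp11, which other cells also use, and 1 was higher without tumour 1, tumour 2, tumour 3 or node 1. Ighg2b stood at 0.240, 1.05 and 0.342 CPM in the tumours and 2034, 1774 and 399 CPM in the nodes (log2FC -11.24 ± 1.09, adjusted p = 0.000224), with a log2FC of -12.17 without tumour 2. Node 3 was the lowest node for all 17 plasma cell genes, and the summed list stood at 10888, 15042 and 3367 CPM in the nodes.

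T cell genes were all lower in tumour, 29 of 29, with a median of -5.13. Cd4 stood at 3.2, 3.69 and 5.70 CPM in the tumours and 262, 285 and 254 CPM in the nodes (log2FC -5.95 ± 0.24, adjusted p = 6.36e-07). Cd8a, the co-receptor of cytotoxic T cells, stood at 6.58, 8.69 and 13.7 CPM in the tumours and 221, 213 and 311 CPM in the nodes (log2FC -4.63 ± 0.30, adjusted p = 1.12e-05). Tumour 3 was the highest tumour for both co-receptors and for 22 of 29 T cell genes, still far under the lowest node. Of 72 tested T cell receptor V segments 72 were lower. Regulatory T cell genes gave 19 lower and 0 higher of 21 (median -2.81). Icos, a costimulatory receptor, stood at 1.97, 1.29 and 2.15 CPM in the tumours and 54.1, 60.9 and 54.3 CPM in the nodes (log2FC -4.92 ± 0.20, adjusted p = 6.39e-07). Ikzf2, the Helios gene, stood at 17.0, 7.96 and 12.5 CPM in the tumours and 68.1, 64.4 and 77.5 CPM in the nodes (log2FC -2.43 ± 0.25, adjusted p = 8.64e-05).

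Cytotoxic and natural killer genes were lower for 18 and higher for 4 of 24 tested (median -2.47). Nkg7, a granule protein, stood at 5.46, 5.64 and 9.28 CPM in the tumours and 54.5, 52.5 and 58.9 CPM in the nodes (log2FC -2.97 ± 0.21, adjusted p = 8.6e-06). The chemokine Ccl5 stood at 13.4, 12.2 and 21.5 CPM in the tumours and 146, 136 and 192 CPM in the nodes (log2FC -3.27 ± 0.23, adjusted p = 1.21e-05). The members higher in tumour were granzymes. Gzmc, a granzyme of activated killer cells, stood at 4.15, 5.42 and 6.48 CPM in the tumours and 1.07, 0.859 and 1.16 CPM in the nodes (log2FC 2.44 ± 0.26, adjusted p = 7.18e-05). Picked after their values were seen, Gzmd had 0.346, 1.73 and 2.34 CPM and Gzme 0.320, 1.34 and 1.09 CPM over the tumours, both with 0 counts in the nodes. With the nodes together set to that floor of 3 counts, Gzmd was at least 55.0-fold and Gzme at least 35.3-fold higher in tumour. Every tumour exceeded every node for these 3 granzymes, which lie in 1 cluster and are similar in sequence, so reads may be split among them. Gzmb, the main killing protease, stood at 17.5, 9.69 and 19.4 CPM in the tumours and 10.8, 9.40 and 6.85 CPM in the nodes. Tumour 2 lay between nodes 1 and 2, so the tissues overlapped. Its call (log2FC 0.83 ± 0.29, adjusted p = 0.0333) was lost without tumour 1 (0.76), tumour 3 (0.67), node 2 (0.89) or node 3 (0.63), and with the replicate number as a block (0.80). The interferon gamma gene Ifng, picked after its value was seen, was not called, at 5.30, 1.03 and 2.46 CPM in the tumours and 2.09, 1.42 and 1.58 CPM in the nodes (log2FC 0.84 ± 0.54, adjusted p = 0.194). It was called higher without tumour 2 (1.27, adjusted p = 0.0230).

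To set lymphocyte genes against the number of T cell transcripts, counts were divided by the summed counts of Cd3d, Cd3e, Cd3g and Cd247 in the same library, a measure added after the data were seen. Cd3e had a log2FC of -5.03 to -4.62 over the alternatives, while the median of all genes tested was -0.05. A gene with an unchanged CPM would therefore be higher in tumour relative to that sum. The share of all genes that were higher in this way was not computed, so the counts and folds below do not set these genes apart from others. Of 24 genes 19 were higher relative to that sum in every tumour than in every node, 2 were lower and 3 overlapped. With Cd3e alone below the line the counts were 17, 2 and 5, and Foxp3 and Cd8a were among the genes that overlapped. Foxp3 stood at 5.86, 6.13 and 4.36% of it in the tumours and 2.28, 3.90 and 2.75% in the nodes, a ratio of means of 1.83. Pdcd1, the PD-1 receptor of activated T cells, stood at 24.4, 30.5 and 26.7% of it in the tumours and 3.68, 5.16 and 2.49% in the nodes (7.21-fold). Havcr2, the Tim-3 receptor that myeloid cells also carry, stood at 45.1, 35.5 and 38.7% of it in the tumours and 4.2, 3.97 and 2.73% in the nodes (10.9-fold). All 3 genes were lower in tumour by CPM and higher relative to the summed transcripts, which for Foxp3 did not hold with Cd3e alone. Gzmb stood at 129, 62.4 and 84.9% of it in the tumours and 2.02, 2.04 and 1.05% in the nodes (53.9-fold). Tnfrsf9, the costimulatory receptor 4-1BB, stood at 71.3, 31 and 30.7% of it in the tumours and 3.43, 3.82 and 2.30% in the nodes (13.9-fold). Cd8a stood at 48.2, 56.0 and 59.8% of it in the tumours and 41.5, 46.3 and 47.6% in the nodes (1.21-fold). Tumour 1 was the highest tumour for Gzmb and Tnfrsf9 and the lowest for Cd8a. Lower relative to the sum was Cd4, at 23.4, 23.7 and 24.9% of it in the tumours and 49.2, 62.0 and 38.9% in the nodes (0.480-fold). Lef1 stood at 4.10, 3.93 and 2.86% of it in the tumours and 21.5, 18.8 and 20.8% in the nodes (0.178-fold). The exact permutation test gave p = 0.1 for each of the 21 genes whose groups did not overlap, the smallest p possible with 3 against 3, and 0.114 after Benjamini-Hochberg adjustment over 24 genes. Other cells can express several of these genes, Tcf7 and Havcr2 among them, and their part was not tested.

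**Figure D3:**
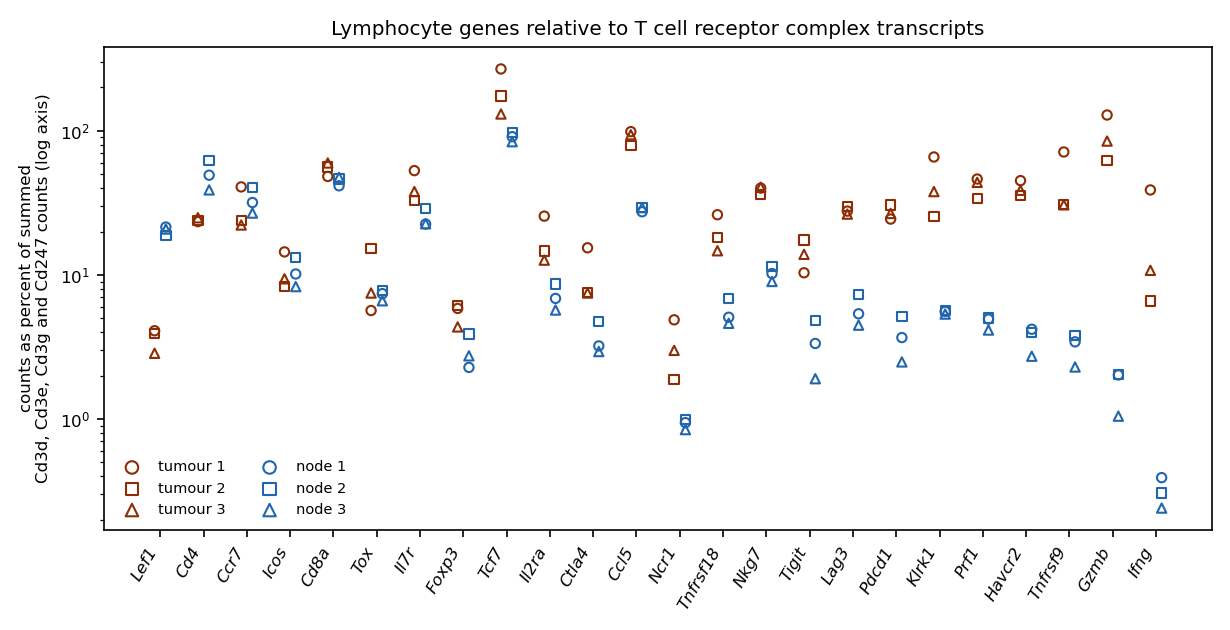
Counts of 24 lymphocyte genes as a percentage of the summed Cd3d, Cd3e, Cd3g and Cd247 counts of the same library, on a log axis and ordered by the ratio of tumour to node; brown symbols are tumours, blue symbols nodes, and shapes give the library number. Lef1 and Cd4 at the left are lower in all tumours, and Gzmb and Ifng at the right are higher in all tumours.

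Of 22 checkpoint receptors and ligands 16 were lower and 4 higher by CPM (median -1.95). Btla, an inhibitory receptor of B and T cells, stood at 2.42, 0.854 and 2.02 CPM in the tumours and 305, 257 and 329 CPM in the nodes (log2FC -7.35 ± 0.35, adjusted p = 3.05e-06). Cd274, the ligand PD-L1, was not called, at 136, 51.2 and 85.2 CPM in the tumours and 67.3, 56.9 and 72.3 CPM in the nodes (log2FC 0.53 ± 0.32, adjusted p = 0.182); tumour 1 was highest of the 6 and the tissues overlapped. Without tumour 2 it was called higher (0.84, adjusted p = 0.00814). Cd47, the signal that macrophages read as self, stood at 161, 87.1 and 107 CPM in the tumours and 393, 332 and 421 CPM in the nodes (log2FC -1.63 ± 0.21, adjusted p = 0.000267). Its receptor Sirpa stood at 317, 281 and 379.6 CPM in the tumours and 205, 250.2 and 156 CPM in the nodes (log2FC 0.72 ± 0.21, adjusted p = 0.0142). Picked after its value was seen, Cd276, the B7-H3 ligand, stood at 42.8, 45.3 and 44.6 CPM in the tumours and 3.88, 2.79 and 3.67 CPM in the nodes (log2FC 3.74 ± 0.14, adjusted p = 5.07e-07).

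Macrophage genes were mixed. Of 29, 11 were higher, 5 lower and 13 not called (median 0.40). C1qa, a chain of complement C1q made by resident macrophages, stood at 187, 139 and 179 CPM in the tumours and 159, 174 and 132 CPM in the nodes (log2FC 0.17 ± 0.16, adjusted p = 0.379), and its libraries overlapped. Csf1r, the receptor for macrophage growth factor, stood at 93.6, 66.3 and 81.1 CPM in the tumours and 211, 308 and 129 CPM in the nodes (log2FC -1.39 ± 0.34, adjusted p = 0.00912), with no overlap. The genes with the highest fold on the list went the other way from Csf1r. Spp1, osteopontin, stood at 105, 88.4 and 158 CPM in the tumours and 1.21, 0.836 and 1.58 CPM in the nodes (log2FC 6.67 ± 0.31, adjusted p = 2.25e-06). Picked after its value was seen, Arg1, the arginase of wound macrophages, stood at 53.7, 48.1 and 38.4 CPM in the tumours and 0.468, 0.882 and 1.04 CPM in the nodes (log2FC 5.92 ± 0.28, adjusted p = 1.28e-06). Both Spp1 and Arg1 were high in all tumours and low in all nodes. Fabp5, a fatty acid carrier, stood at 369, 264 and 288 CPM in the tumours and 51.1, 54.8 and 42.1 CPM in the nodes (log2FC 2.69 ± 0.18, adjusted p = 5.9e-06). Gpnmb, named among the pigment genes, is also on this list. Sinus and medullary macrophage genes gave 8 lower and 2 higher of 12 tested, and 5 lower without tumour 2 or tumour 3. Marco, a scavenger receptor, stood at 7.99, 18.5 and 14.7 CPM in the tumours and 241, 275 and 81.8 CPM in the nodes (log2FC -3.82 ± 0.61, adjusted p = 0.00186). Cd163, a haemoglobin scavenger, stood at 29.4, 15.8 and 13.5 CPM in the tumours and 2.23, 5.90 and 3.81 CPM in the nodes (log2FC 2.34 ± 0.44, adjusted p = 0.00239). Node 3 was lowest among nodes for Marco and for 10 of 12 of these genes.

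Of 25 dendritic cell genes 21 were lower and 3 higher (median -2.58). Wdfy4, needed for cross-presentation, stood at 18.3, 11.6 and 12.6 CPM in the tumours and 436, 414 and 402 CPM in the nodes (log2FC -4.82 ± 0.20, adjusted p = 5.94e-07). Cadm1, an adhesion gene also used by other cells, was higher, at 309, 344 and 397 CPM in the tumours and 20.3, 18.8 and 15.8 CPM in the nodes (log2FC 4.31 ± 0.17, adjusted p = 5.19e-07). Bst2 and Sirpa, which other cells also express, were the other members higher. Neutrophil genes gave 13 lower and 3 higher of 21 tested (5 higher without tumour 2). S100a9, a subunit of calprotectin, stood at 0.559, 0.415 and 0.685 CPM in the tumours and 25.1, 58.4 and 51.2 CPM in the nodes (log2FC -6.30 ± 0.41, adjusted p = 1.02e-05), under 1 CPM in each tumour. Among the higher members was Acod1, the itaconate enzyme of activated myeloid cells, at 28.7, 7.86 and 14.7 CPM in the tumours and 0.688, 0.650 and 0.705 CPM in the nodes (log2FC 4.69 ± 0.50, adjusted p = 0.000110). The others were the chemokines Cxcl2 and Cxcl3, which macrophages also make. Of 10 tested mast cell genes 8 were lower and 0 higher (1 higher without tumour 2 or tumour 3). Mcpt4, a chymase, stood at 2.61, 1.37 and 1.65 CPM in the tumours and 12.6, 16.7 and 21.4 CPM in the nodes (log2FC -3.11 ± 0.30, adjusted p = 3.92e-05).

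MHC class II genes were lower in tumour for all 14 (median -2.81). Cd74, the invariant chain, stood at 833, 632 and 790.5 CPM in the tumours and 6309, 5764 and 4930.0 CPM in the nodes (log2FC -2.86 ± 0.17, adjusted p = 3.38e-06). Class I presentation was mixed, with 7 lower, 3 higher and 12 not called of 22 (median -0.52). H2-K1 stood at 1343, 1220.4 and 1329.7 CPM in the tumours and 3280.0, 3431 and 3393 CPM in the nodes (log2FC -1.32 ± 0.10, adjusted p = 1.49e-05). B2m, the light chain shared by class I molecules, was not called, at 1925, 1809.6 and 2292 CPM in the tumours and 2151, 2038 and 1999 CPM in the nodes (log2FC 0.02 ± 0.12, adjusted p = 0.911), and its libraries overlapped. Tumour 1 was the highest tumour for 18 of 22 class I genes, and without tumour 1 the number lower rose to 17. Class I genes of the H2-Q group have close copies, and counts for H2-Q7, at 50.5, 40.3 and 53.1 CPM in the tumours and 689, 635 and 889.7 CPM in the nodes (log2FC -3.88 ± 0.16, adjusted p = 5.76e-07), are uncertain for that reason.

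Interferon-stimulated genes were higher in tumour for 16, lower for 1 and not called for 15 of 32 (median 0.95). Irgm1, a GTPase of interferon gamma responses, stood at 734, 269 and 385 CPM in the tumours and 101, 87.4 and 127 CPM in the nodes (log2FC 2.20 ± 0.37, adjusted p = 0.00158). Cxcl10, a chemokine for activated T cells, stood at 244, 120.3 and 88 CPM in the tumours and 20.3, 17.2 and 27.6 CPM in the nodes (log2FC 2.86 ± 0.41, adjusted p = 0.000961). Bst2, which tethers budding virus, stood at 532, 380.1 and 363 CPM in the tumours and 107, 121 and 136 CPM in the nodes (log2FC 1.87 ± 0.16, adjusted p = 2.4e-05). No node reached the lowest tumour for any of the 3. Tumour 1 was the highest tumour for all 32 genes of the list and node 3 the highest node for 28. The list summed to 7584, 2848 and 3765 CPM in the tumours and 2089, 1877 and 2803 CPM in the nodes. The count of genes higher was 9 without node 2, and the count lower was 4 without tumour 1. Among 24 inflammatory chemokines and receptors 13 were higher and 5 lower. Ccl9, a chemokine of myeloid cells, stood at 66.4, 28.6 and 26.7 CPM in the tumours and 11.1, 15.4 and 7.25 CPM in the nodes (log2FC 1.89 ± 0.47, adjusted p = 0.0102). Cxcl16 stood at 21.4, 18.1 and 30.9 CPM in the tumours and 71.4, 70.1 and 77.4 CPM in the nodes (log2FC -1.58 ± 0.18, adjusted p = 0.000127).

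Notch signalling, in which Jag and Dll ligands on a cell activate Notch receptors on its neighbour, is what the Jag1 allele of the series acts on. Of 20 tested ligands, receptors and processing genes 9 were lower and 4 higher in tumour (median -0.20). Notch2, the receptor of marginal zone B cells, stood at 50.4, 40.4 and 48.7 CPM in the tumours and 263, 291 and 275 CPM in the nodes (log2FC -2.52 ± 0.12, adjusted p = 1.11e-06). Notch1 stood at 62.6, 40.0 and 39.6 CPM in the tumours and 114, 153 and 132 CPM in the nodes (log2FC -1.44 ± 0.21, adjusted p = 0.000444). The fringe enzyme Lfng, which tunes ligand choice stood at 14.5, 12.3 and 12.5 CPM in the tumours and 130.0, 183 and 142 CPM in the nodes (log2FC -3.48 ± 0.17, adjusted p = 1.34e-06). All 3 were lower in each tumour than in each node. Psen2, a subunit of the protease that releases active Notch, stood at 344, 351 and 379 CPM in the tumours and 91.9, 108 and 93.8 CPM in the nodes (log2FC 1.92 ± 0.12, adjusted p = 3.77e-06). Of 14 tested Notch targets 7 were lower and 3 higher, and 1 was higher with tumour 1, tumour 2 or node 3 left out in turn. Dtx1, a target in lymphocytes, stood at 1.01, 0.513 and 0.436 CPM in the tumours and 163, 169 and 138 CPM in the nodes (log2FC -7.84 ± 0.29, adjusted p = 5.69e-07). In the TGF beta list 11 were lower and 7 higher of 22 tested. Tgfb1 stood at 81.5, 81.0 and 95.4 CPM in the tumours and 254, 312 and 222 CPM in the nodes (log2FC -1.56 ± 0.16, adjusted p = 6.51e-05). Its receptor Tgfbr2 stood at 106, 90.5 and 105 CPM in the tumours and 369, 422 and 344 CPM in the nodes (log2FC -1.86 ± 0.13, adjusted p = 7.87e-06). Ligand and receptor were thus both lower in every tumour. Itgav, an integrin subunit that frees the latent factor, stood at 310.1, 258 and 315 CPM in the tumours and 50.7, 49.2 and 54.5 CPM in the nodes (log2FC 2.57 ± 0.10, adjusted p = 5.76e-07).

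Lysosome genes, which share organelle biogenesis with melanosomes, were higher for 20 and lower for 2 of 28 (median 1.05). Ctsd, an acid protease, stood at 684, 754 and 847 CPM in the tumours and 281, 389 and 249.9 CPM in the nodes (log2FC 1.36 ± 0.20, adjusted p = 0.000441). Ctsh, a protease of antigen-presenting cells, stood at 78.4, 54.9 and 62.0 CPM in the tumours and 280.1, 319 and 255 CPM in the nodes (log2FC -2.08 ± 0.17, adjusted p = 1.56e-05). Of 18 unfolded protein response genes 11 were higher and 3 lower. Pdia6, a disulfide isomerase, stood at 698, 532 and 602 CPM in the tumours and 272, 233 and 192 CPM in the nodes (log2FC 1.44 ± 0.17, adjusted p = 0.000131). Xbp1, which plasma cells need, stood at 119.9, 89.8 and 104 CPM in the tumours and 290.1, 354 and 155 CPM in the nodes (log2FC -1.31 ± 0.32, adjusted p = 0.00924). Cytosolic ribosomal protein genes were lower for 26 of 31 (median -0.67), and all ribosomal protein genes took 4.53, 4.82 and 4.25% of tumour counts against 7.47, 7.25 and 7.35% of node counts. Rplp0 stood at 1247, 1318 and 1163 CPM in the tumours and 2201, 2273 and 2079 CPM in the nodes (log2FC -0.76 ± 0.12, adjusted p = 0.000533). Complement genes gave 10 lower and 4 higher of 21. C3, the central component, stood at 204, 123 and 119 CPM in the tumours and 1826, 1990.3 and 1315 CPM in the nodes (log2FC -3.47 ± 0.29, adjusted p = 2.72e-05). The receptor for its fragment, C3ar1, stood at 46.9, 31.8 and 35.4 CPM in the tumours and 0.964, 1.67 and 0.818 CPM in the nodes (log2FC 5.07 ± 0.32, adjusted p = 5.79e-06), with the tissues fully apart for both.

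Libraries of the same tissue differed in genes of surrounding tissue. The 12 skeletal muscle genes summed to 28.2, 37.0 and 466 CPM in the tumours and 55.6, 59.0 and 75 CPM in the nodes. Myh1, a fast myosin, stood at 0.0799, 0.0732 and 106 CPM in the tumours and 0.0551, 0.163 and 0.169 CPM in the nodes. Only tumour 3 stood out, and the count of tested muscle genes lower in tumour was 0 with it and 5 without it. Acta1 and Myh1 did not pass the filter on low counts and were not tested. Of 7 tested muscle genes 1, Ckm, was called higher in tumour with all libraries. That call was lost under 14 of the 17 alternatives in which Ckm had a value. Adipocyte genes summed to 653, 598 and 178 CPM in the tumours and 153, 283 and 472 CPM in the nodes. Tumour 3 was the lowest tumour for all 12 tested members and node 3 the highest node for 11; none was called higher, but 7 were without node 3 and 2 without tumour 3. With all libraries, edgeR gave an unadjusted p under 0.05 for 0 of the 12, and DESeq2, limma-voom and edgeR with non-robust dispersion each called 1. Simple epithelium genes summed to 36.2, 8.2 and 3.61 CPM in the tumours and 20.5, 54.3 and 176 CPM in the nodes. Krt8, a keratin of simple epithelium, stood at 8.60, 0.952 and 0 CPM in the tumours and 0.799, 4.50 and 34.0 CPM in the nodes. Node 3 was the highest library for Krt8, and the list counted 3 genes lower in tumour with all libraries and 7 without node 1. The part of these genes in other values that set tumour 3 or node 3 apart was not tested.

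**Figure D4:**
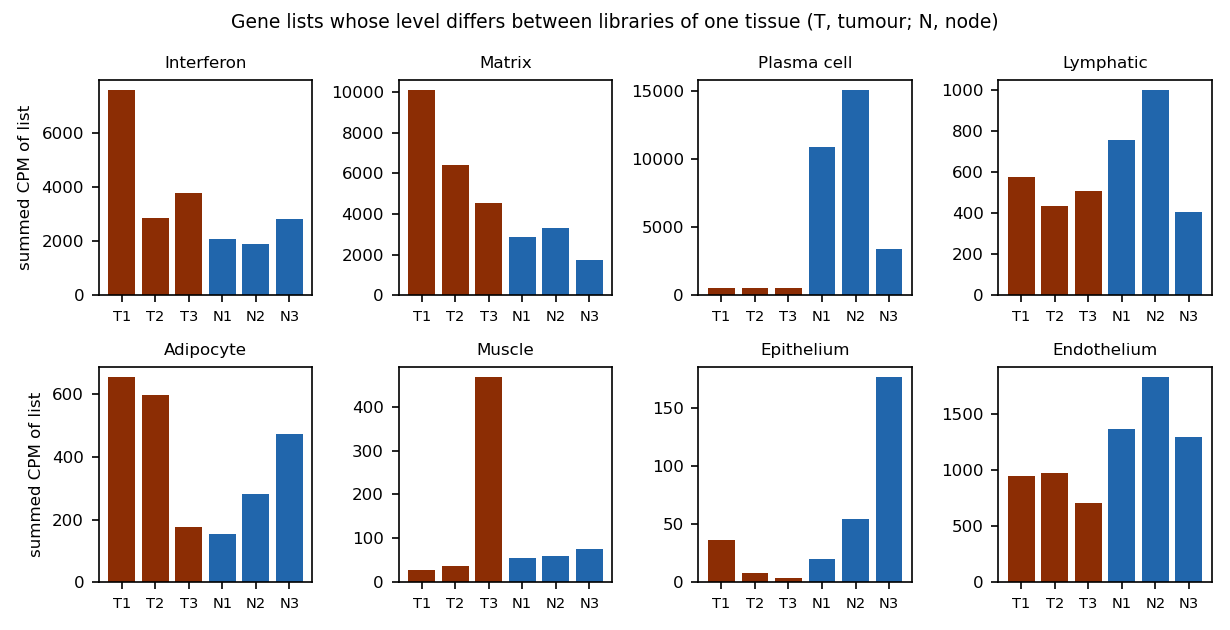
Summed CPM of 8 gene lists in tumours 1 to 3 (T, brown bars) and nodes 1 to 3 (N, blue bars), each panel with its own axis from 0. Tumour 1 is highest for interferon and matrix genes, tumour 3 for muscle, node 3 for epithelium, and node 3 is lowest among nodes for plasma cell and lymphatic genes.

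Some transcripts of the pigment programme were found in node 3 above the other nodes. Dct had 0, 3 and 282 counts in nodes 1, 2 and 3, Tyrp1 0, 3 and 63, Mlana 1, 3 and 37 and Slc45a2, a melanosomal transporter picked after its values were seen, 0, 0 and 29. Of 24 pigment and lineage genes examined 14 were highest in node 3 by CPM, some by a small margin. The summed pigment list stood at 333, 387 and 352 CPM in the nodes, so node 2 was the highest. Node 3 was the highest node for 24 of 29 T cell genes and 0 of 17 plasma cell genes. The share over all genes was not computed. Krt14 and the summed epithelium and adipocyte lists, given above, were also highest in node 3 among the nodes, and their part in the pigment counts was not tested.

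Some genes had counts in only 1 tissue. Over all tested genes, 40 had 0 counts in the nodes and at least 1 CPM on average in the tumours (0.215%), and 146 the reverse (0.786%). Gsdmc, a pore-forming gasdermin, stood at 107, 90.3 and 42.2 CPM in the tumours and 0 in the nodes, at least 3142-fold higher with the nodes together at the floor of 3 counts. Hoxd13, a homeobox gene of limb and genital buds, stood at 7.24, 10.1 and 6.54 CPM in the tumours, at least 309.7-fold higher. Cacna1i, a calcium channel gene, stood at 129, 127 and 102 CPM in the nodes, at least 4433-fold higher than in tumours, and Dsc3, a desmosomal cadherin, at 94.7, 45.1 and 59.0 CPM, at least 2399.8-fold. Counts were present in all 3 libraries of the higher tissue for each of these 4 genes.

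Fold changes differed by chromosome. Among 8641 protein-coding genes with at least 10 CPM on average in both tissues, the median log2FC was 0.15. Of these genes 42.8% were called higher in tumour and 30.9% lower. Genes of chromosome 6 had the highest median, 0.86, with 69.4% of 415 genes called higher, and the median relative to all chromosomes was 0.71 and ran from 0.70 to 0.74 over the alternatives. All 9 blocks of 10 Mb of chromosome 6 with at least 20 such genes lay above the median of all genes, from 0.44 to 1.27. Chromosomes 12, 15 and 11 followed, at 0.44, 0.42 and 0.37. Chromosome 7 had the lowest median, -0.23, with 45.7% of 611 genes called lower, and its value relative to all chromosomes ran from -0.39 to -0.35. Gapdh, Tpi1, Mitf, Met and Gpnmb, all higher in tumour, lie on chromosome 6, as do the lower genes Cd4, Cd8a and Cxcl12. Genes on a chromosome are not independent replicates, no test was made, and copy number was not measured.

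**Figure D5:**
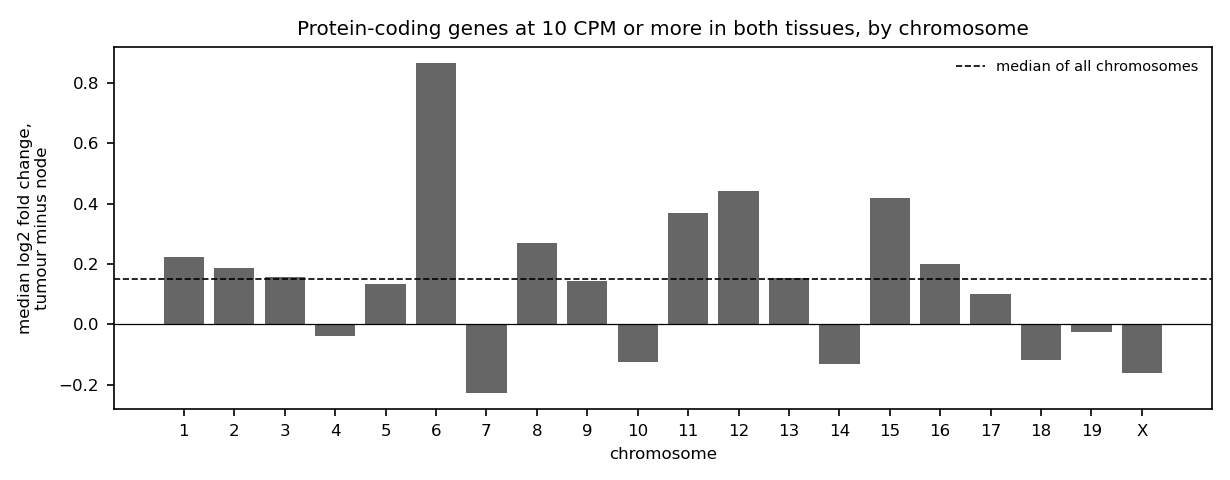
Median log2 fold change, tumour minus node, of protein-coding genes with at least 10 CPM in both tissues, by chromosome; the dashed line is the median over all chromosomes, 0.15. Chromosome 6 stands highest at 0.86 and chromosome 7 lowest at -0.23.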

How the data were processed

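RNA from whole B16F10 tumours and tumour-draining lymph nodes was sequenced. The authors deposited counts of reads per gene, not normalized, in a tumour table and a node table. Per the submitters' processing notes, Trimmomatic 0.36, STAR 2.5.2b, featureCounts and Subread 1.5.2 were used with GRCm38; which annotation and strand setting served is not given in the sources used here. Symbols and coordinates came from GENCODE M21, which matched 48970 of 49315 IDs. CPM is a count scaled to 1000000 counts of its library. Counts from the 6 Foxp3Ctrl libraries (32117478 to 43068367 each) were fitted with edgeR 4.0.16 in R 4.3.3 (filterByExpr, TMM, robust quasi-likelihood), with glmTreat against a fold of 2. The fit was tested on simulated data: of 100 genes changed 4-fold 87 were called, of 100 changed 2-fold 46, and 17 of 150 calls were false. Alternatives included DESeq2 1.42.0 and limma 3.58.1 (voom), 18 in all.

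Tumour and node libraries of the same number share a code in their column names, but the labels do not say that it marks a mouse. Same-numbered libraries did not deviate together (r = -0.08, 0.13 and 0.00 over genes). This cannot show whether they came from the same mouse, since libraries of 2 tissues from 1 mouse need not deviate together. The main fit did not treat them as pairs, and an alternative fit took the replicate number as a block. Foxp3ΔJag1 nodes entered 1 alternative fit alone, Foxp3ΔJag1 tumours were not analysed here, and 3 columns that matched no sample were not used. Members and gene lists were chosen with earlier results of these data known. Genes were named by level (12 in each direction, log2FC of at least 2), by list (up to 3 called members of highest CPM in the main direction and 2 in the other), by variation between libraries or by 0 counts in a tissue, with design genes and markers; list members not called were named where they had at least 20 CPM. Others are given as picked after their values were seen. Two-sided exact permutation tests over 3 against 3 libraries cannot go below p = 0.1. Some named genes are not reported here.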

Additional observations from a re-analysis of the deposited data

How the results depend on the processing

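The counts of genes called stayed within 1.5 times under all 18 alternatives: 5640 to 7197 higher, 5787 to 7723 lower, 2550 to 3426 more than 2-fold higher and 3066 to 4306 more than 2-fold lower. With 1 library left out the ranges were 6221 to 6557, 6556 to 6866, 2995 to 3149 and 3603 to 3977. With the replicate number as a block the counts were 6531 higher and 6844 lower. Same-numbered tumour and node libraries share a code in their column names, but the labels do not say that it marks a mouse. Of the comparisons of a named gene with its value under an alternative, 4300 kept their side of the threshold, 157 lost a call (36 genes) and 18 gained one (12 genes). No called gene changed direction, while some genes that were not called with all libraries, Ttn and Krt8 among them, changed the sign of their log2FC. List counts moved by over 1.5 times in 102 of the comparisons (29 counts). List medians moved by more than their spread between libraries of a tissue in 43 comparisons (24 of 49 lists) and by less in 790. Without the low-count filter 7 interferon genes were higher, and 5 at an adjusted p under 0.01. With 3 libraries a tissue, 46 of 100 genes changed 2-fold were called on simulated data, which gave 150 calls over 18566 genes. The deposited data gave 13583 calls over 18566 genes. Whether the share of 46 of 100, or that of 17 false calls in 150, holds there was not tested. A gene that was not called may still differ between the tissues, and its log2FC and approximate standard error are a rough guide to how much.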
